A study of Mustela putorius furo with 10 samples.

Results

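RBM3 was the only gene of 4 listed cold-inducible RNA-binding and cold-shock domain genes that could be followed in blood cells of cold-exposed ferrets. The list held CIRBP and RBM3, the classical cold-inducible RNA-binding proteins, and YBX1 and YBX3, Y-box proteins with a cold-shock domain. Each symbol was looked up through the RefSeq ferret gene name of the transcript that a probe targets, and a gene was kept where its ferret (Cy3) signal lay well above background on at least 4 of the 10 arrays. RBM3 matched and passed, so 1 of 4 genes was measured, out of 26303 genes tested in the series. CIRBP, YBX1 and YBX3 matched no target sequence under this rule and were not analysed here. Genes without a matching name can be among the 17027 that were tested under their accession.

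RNA came from peripheral blood mononuclear cells (PBMC), the lymphocytes and monocytes that a Ficoll gradient separates from blood. All animals were male ferrets 3 months old, with free access to food and water and a light/dark cycle. The control group was kept at 22 °C and gave 6 arrays, and the cold group was kept at 4 °C for 1 week and gave 4 arrays, whereas 7 animals had been assigned to each group. For the cold group, the study's methods name difficulties in obtaining PBMC from some of the animals. Cold-exposed ferrets were housed individually and the housing of the controls is not stated, so that temperature and individual housing cannot be told apart if the controls shared cages. Each array carried the RNA of 1 ferret in Cy3 and the same mixed-tissue reference pool in Cy5. Values are log2 ratios of Cy3 to Cy5 after loess normalization within the array, and a gene was called at an unadjusted limma p under 0.01, the threshold of the study's methods. By this rule 8.64% of all genes were called, 5.21% higher and 3.43% lower in cold. After Benjamini-Hochberg adjustment no gene passed 0.05 in limma (the lowest adjusted p was 0.0576), with 6501 genes at an unadjusted p under 0.05.

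RBM3 and CIRBP are small proteins with an RNA-recognition motif followed by a glycine-rich stretch. In cultured mammalian cells their amount rises on mild cooling, and they bind mRNAs and affect their stability and translation. Proteins with a cold-shock domain, an ancient nucleic acid-binding fold, also package and regulate mRNAs. The core temperature of a mammal kept in the cold is defended, and the temperature of the blood cells was not among the data analysed here.

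RBM3 was higher in the cold group. The array represents it by 1 target sequence with 4 probes, each printed on 3 spots, and all 12 spots lay well above background in Cy3 on every array, with none saturated. In the 6 controls the RBM3 log2 ratio was 0.15 at the lowest, 0.24 at the median and 0.47 at the highest. In the cold ferrets it was 0.83, 0.52, 0.96 and 0.40 for cold 1 to 4. Cold 1 and cold 3 stood highest, and the groups overlapped, since cold 4 lay below control 3, the highest control. The mean was 0.27 ± 0.13 (SD, n = 6) in controls and 0.68 ± 0.26 (SD, n = 4) in cold. RBM3 thus rose by 0.41 (SE 0.12) on the log2 scale, or 1.33-fold, with an unadjusted limma p of 0.00585 and an adjusted limma p of 0.0997. The exact two-sided permutation test over the 210 splits of the arrays gave p = 0.00952, against a smallest possible p of 0.00476.

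The rise of RBM3 was not rare among the genes tested. A total of 1543 genes (5.87%) had a lower p and 1875 genes (7.13%) a larger increase. The spread of RBM3 within groups was 0.19 on the log2 scale, close to the median of all genes, 0.19. Leaving out each array in turn gave changes from 0.31 to 0.50, and the unadjusted limma p stayed under 0.01 in 5 of 10 cases. RBM3 was no longer called without control 1 (0.39), control 4 (0.39), control 6 (0.39), cold 1 (0.36) or cold 3 (0.31). Within the first position of the slide (control 1, 2, 4 and 6 and cold 1 and 2) the difference was 0.47, and within the second (control 3 and 5 and cold 3 and 4) it was 0.28.

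The probes of RBM3 all pointed upward but differed in size. Probe 1 changed by 0.59 (SE 0.15) with a limma p of 0.00246 across all probes, and its groups did not overlap, which held for 3.87% of all probes. Probe 2 differed by 0.40 (SE 0.15), probe 3 by 0.36 (SE 0.17) and probe 4 by 0.28 (SE 0.12), with limma p of 0.0199, 0.0601 and 0.0378. None of these was under 0.01, and the exact permutation p was 0.00476, 0.0286, 0.105 and 0.0286 for probes 1 to 4. Over the 10 arrays the probes followed one another with Pearson's r of 0.66 to 0.86 in 6 pairs, which share the labelled RNA. Probe 1 carried the call, because without it the change of RBM3 was 0.35 and the limma p 0.0130.

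**Figure D1:**
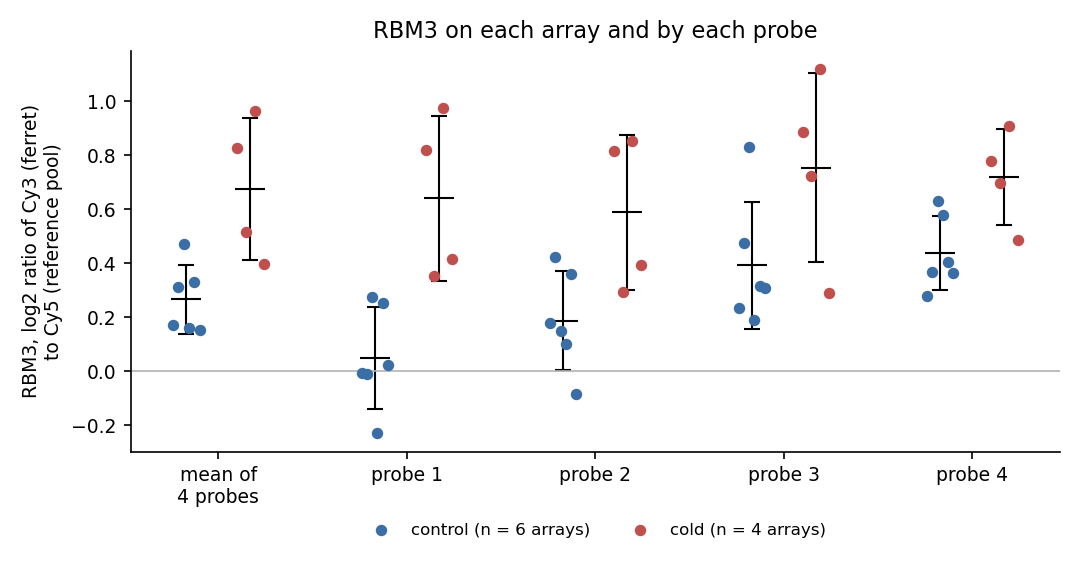
RBM3 log2 ratio of Cy3 (ferret) to Cy5 (reference pool) as the mean of its 4 probes and for each probe. Points are arrays (6 control, 4 cold), and bars give the mean and 1 SD. The means of cold lie above those of control for every probe, and only probe 1 separates the groups.

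The channels were then examined apart, since the Cy5 pool is the same on every array and a difference there is not one between animals. In Cy3 alone, quantile normalized between arrays, RBM3 was 11.53 ± 0.16 (SD, n = 6) in controls and 12.05 ± 0.29 (SD, n = 4) in cold on the log2 scale. It rose by 0.52 (SE 0.13) with an unadjusted limma p of 0.00222 and an adjusted limma p of 0.0585. In Cy5 treated alike, the log2 level was 8.08 ± 0.14 (SD, n = 6) and 8.21 ± 0.09 (SD, n = 4), a difference of 0.13 (SE 0.08) with a limma p of 0.119.

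Before any normalization both channels of the RBM3 spots were brighter in cold. The median Cy3 intensity of the 12 spots was 2229.8 at the lowest, 2677 at the median and 3952 at the highest of the controls. It was 5323, 5312, 5843 and 3077 in cold 1 to 4, so that cold 4 lay among the controls. The Cy5 intensity of the same spots ran from 95.5 to 427 in controls (median 111) and was 1364, 201, 683 and 392 in cold 1 to 4. The exact permutation p was 0.0143 for Cy3 and 0.0238 for Cy5. Over all spots the median Cy5 intensity ran from 44 to 80 in controls and from 48 to 152 in cold (exact permutation p = 0.0524), and its part in the RBM3 ratio was not tested.

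**Figure D2:**
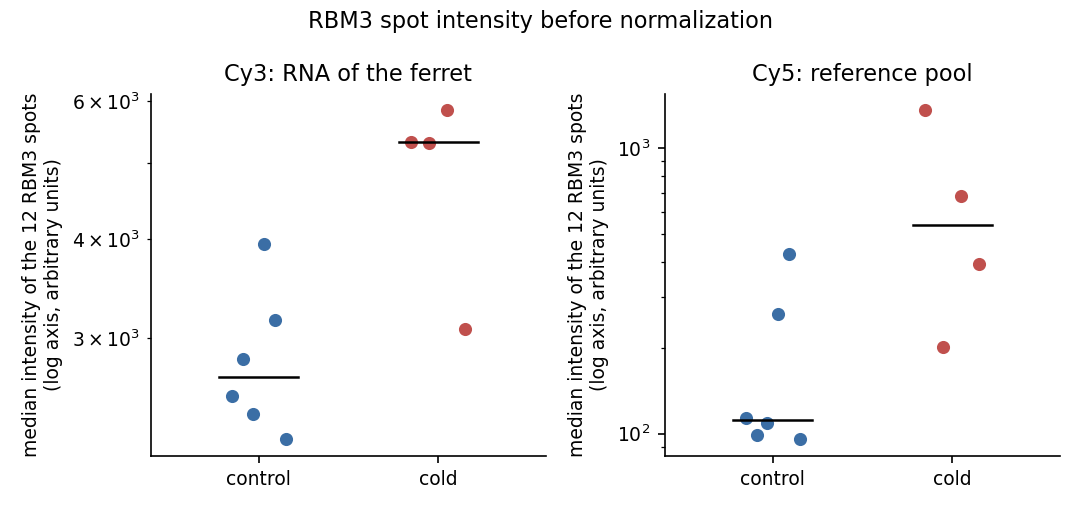
Median intensity of the 12 RBM3 spots on each array, before background correction and normalization, on log axes. Points are arrays and lines group medians. Cold ferrets 1 to 3 lie above all controls in Cy3, and cold 1 and cold 3 lie above all controls in the Cy5 of the common pool.

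The size and the sign of the RBM3 difference varied with how the arrays were scaled. With median centring of each array in place of loess it was -0.39, with an unadjusted limma p of 0.299, in a setting that moved the median of all genes to -0.43, so that RBM3 lay 0.04 above that median. In the deposited value table RBM3 was 11.87 ± 0.35 (SD, n = 6) in controls and 11.93 ± 0.28 (SD, n = 4) in cold, a difference of 0.05 (exact permutation p = 0.824). With the processed signals of the scanner software the difference was 0.33 beside an all-gene median of -0.10, or 0.43 relative to all genes, and the limma p was 0.0476. The methods' t-test on the loess values gave an unadjusted p of 0.0106 in 6 control and 4 cold arrays, against an exact permutation p of 0.00952. RBM3 was thus called in the loess-normalized ratio and in Cy3 alone, higher but not called with the processed signals, and 0.04 above the median of all genes both under median centring and in the deposited values. Both of those last settings use the ratio without loess, shifted by a constant per array, so that they are not independent.

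**Figure D3:**
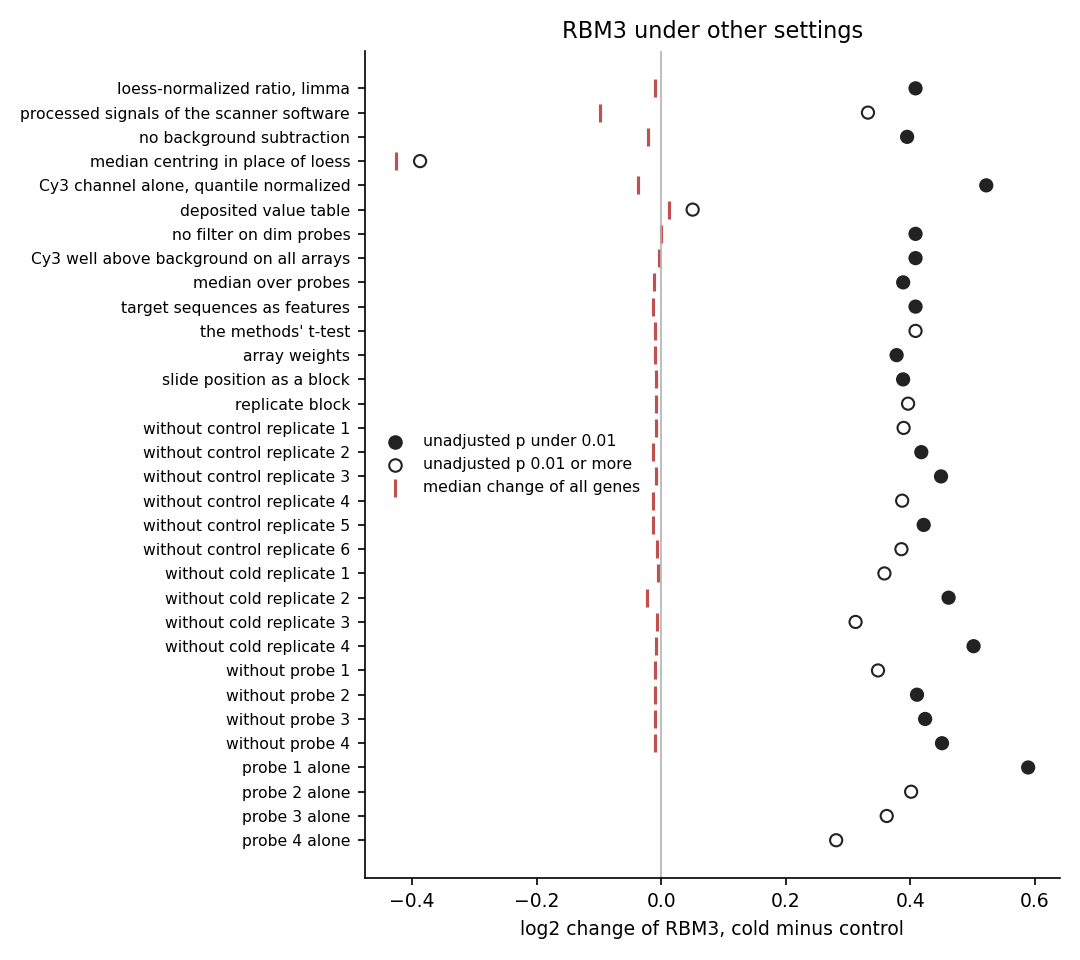
Log2 change of RBM3, cold minus control, under each setting tried. Filled points have an unadjusted limma p (for the methods' t-test, its own p) under 0.01, and red ticks mark the median change of all genes where it was computed. Median centring gives -0.39 beside an all-gene median of -0.43, and the values deposited by the authors give 0.05.

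PBMC samples hold several cell types, and marker genes of other blood cells moved with the groups. In bulk samples, fewer cells of a type and less RNA per cell cannot be told apart. All 7 measured neutrophil markers were higher in cold, 3 of them called (5.21% of all genes were called higher and 3.43% lower), with a median difference of 0.82. Their mean log2 ratio per array ran from 0.51 to 1.22 in controls and from 1.52 to 1.94 in cold, without overlap. Monocyte markers were higher for 5 of 6 (2 called, median 0.54), with 0.42 to 1.10 in cold against -0.03 to 0.52 in controls. Platelet markers were higher for 5 of 5 (2 called, median 0.87), with 0.74 to 1.77 against -0.05 to 1.25. T cell markers were lower for 7 of 9 (1 called, median -0.38), with -0.66 to 0.09 against 0.03 to 0.28, and in Cy3 alone they were lower for 9 of 9 (6 called, median -0.66). Erythroid markers were lower for 4 of 4 (1 called, median -0.74), with -0.85 to -0.06 against 0.18 to 1.12, and their median was -1.73 in Cy3 alone and -1.42 in the deposited values, with 2 called in each. B cell markers (5 of 5 lower, median -0.12, none called) ranged from 0.34 to 0.79 in cold and from -0.16 to 1.39 in controls, and their median was -0.56 in Cy3 alone and -0.48 in the deposited values. Cytotoxic and NK markers (3 of 3 higher, median 0.10, none called) ranged from 0.14 to 0.74 and from 0.29 to 0.60. Under median centring the median of the monocyte list turned to -0.50 and of the neutrophil list to -0.01, both beside the all-gene shift of -0.43, and in Cy3 alone the cytotoxic and NK list turned to -0.15. In the deposited values the monocyte median was 0.03 (4 of 6 higher, 1 called), beside 0.01 for all genes. The neutrophil median there was 0.48 (5 of 7 higher, 1 called). Platelet markers in Cy3 alone were higher for 5 of 5, with none called.

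RBM3 followed the myeloid lists across arrays. Over the 10 arrays its Pearson's r was 0.89 with the neutrophil list, 0.78 with the monocyte list and 0.68 with the platelet list, and -0.75 with the T cell list and -0.73 with the erythroid list. After each group's mean was subtracted, r was 0.72, 0.54, 0.32, -0.55 and -0.31 in the same order. For the cytotoxic and NK list r was -0.12 over the 10 arrays and -0.53 after subtraction, and for the B cell list -0.12 and 0.10. These values are descriptions over arrays that share the reference pool. The part of the cell mixture in the rise of RBM3 was not tested.

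**Figure D4:**
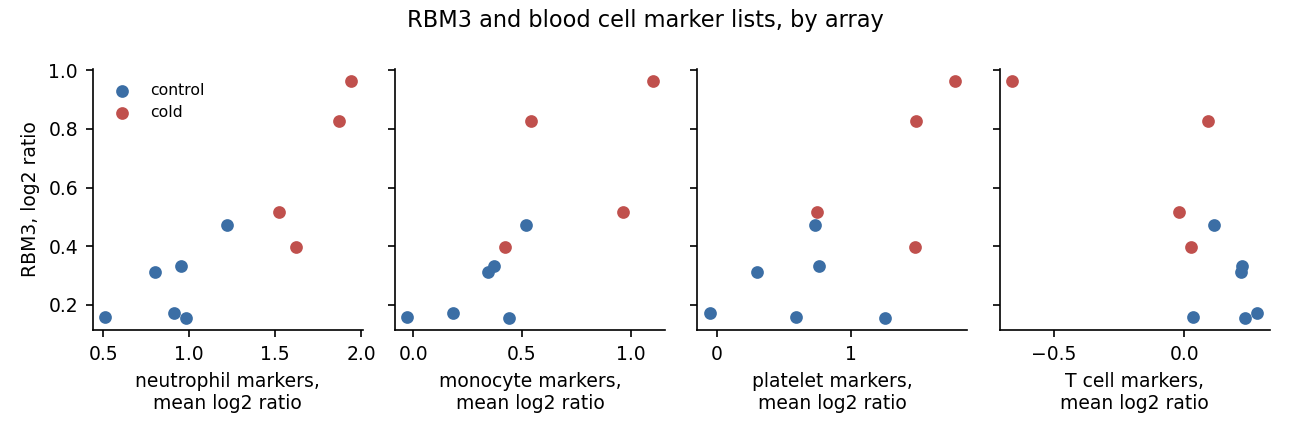
RBM3 log2 ratio on each array against the mean log2 ratio of 4 lists of blood cell markers. Points are arrays, blue for control and red for cold. Cold 1 and cold 3, highest for RBM3, are also the highest for the neutrophil and platelet lists, and cold 3 is the lowest for the T cell list.

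The genes whose pattern over the 10 arrays was most like that of RBM3 were sought among 8340 genes with a symbol. They were EMILIN2, an extracellular matrix glycoprotein (r = 0.99), HFE, a regulator of iron uptake (r = 0.97), HOMER3, a scaffold protein (r = 0.97), TOR4A, a torsin family member (r = 0.96), and SLC7A7, an amino acid transporter subunit (r = 0.96). After the group means were subtracted they were EMILIN2 (0.97), CD93, a receptor of myeloid and endothelial cells (0.95), HOMER3 (0.94), HFE (0.94) and PPOX, an enzyme of haem synthesis (0.92). EMILIN2, HFE and HOMER3 stood in both sets.

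Of 57 genes in 6 lists around the cold-inducible proteins, 34 matched a target sequence and 30 were measured. In cold, 17 of them lay lower and 13 higher, and their median difference was -0.04, beside -0.01 for all genes. TNPO1 fell, and RBM3, LY96 and IGF2BP3 rose, so that 4 of 30 were called, where 8.64% of all genes were. RBM3, reported above, is itself counted in these lists and among the genes called. No gene of these lists passed an adjusted limma p of 0.05, as no gene of the series did.

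Among genes of proteins with a cold-shock domain, 3 of 8 were measured and none was called (2 lower, 1 higher). CARHSP1, which binds the mRNA of TNF, differed by 0.40 (SE 0.19), by 0.08 in the deposited values, and by 0.22 without cold 3. LIN28A, which blocks maturation of let-7 miRNAs, differed by -0.36 (SE 0.47), and its sign turned without cold 4 (0.30). LIN28B and CSDC2 lay below the filter.

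Among RNA-recognition-motif proteins with a glycine-rich part, 6 of 15 were measured, 4 lower and 2 higher (median -0.08), and RBM3 was the only gene called. HNRNPA0 differed by -0.20 (SE 0.08) and RBMX by -0.16 (SE 0.08). These are nuclear RNA-binding proteins with roles in mRNA processing. Under median centring, beside an all-gene median of -0.43, HNRNPA0 was -0.38 and RBMX -0.86. In the deposited values they were -0.06 and -0.48, and with the processed signals HNRNPA0 was -0.44.

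Genes reported to act on CIRBP or RBM3 gave 7 of 10 measured, 6 lower and 1 higher, with none called and a range from -0.23 to 0.07. HNRNPH1, a splicing regulator, differed by -0.23 (SE 0.16) and PRMT1, which methylates arginines in glycine-rich parts, by -0.10 (SE 0.14). HSF1, the heat shock transcription factor, differed by -0.09 (SE 0.14) and CLK4, a kinase of splicing factors, by -0.08 (SE 0.16). In the deposited values all 7 were lower, with a median of -0.40 beside 0.01 for all genes, and under median centring all 7 were lower with a median of -0.78 beside -0.43. In Cy3 alone 4 were lower and 3 higher, with a median of -0.13, and none was called in any of these settings. CLK4 was -0.46 with the processed signals, -0.40 in the deposited values and -0.78 under median centring. TRPV4, a temperature-sensitive ion channel, lay below the filter.

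Among targets and partners of CIRBP and RBM3, 7 of 10 were measured, 4 lower and 3 higher (median -0.09). TNPO1, the transportin that carries glycine-rich RNA-binding proteins into the nucleus, ran from -0.54 to -0.000433 in controls (median -0.28) and was -0.61, -0.56, -0.52 and -0.94 in cold 1 to 4. It was low in all cold ferrets, although control 3 lay below cold 3. TNPO1 fell by 0.38 (SE 0.12) with an unadjusted limma p of 0.00988 and an adjusted limma p of 0.115, and was no longer called in 16 of 22 alternatives. In 15 of these the change stayed within 1.5 times, and over the left-out arrays it ran from -0.43 to -0.28. TNPO1 was -1.02 and called under median centring, 0.60 below the median of all genes. It was -0.62 and not called in the deposited values (unadjusted limma p of 0.0105), and -0.26 in Cy3 alone (unadjusted limma p of 0.201). TXN, the redox protein thioredoxin, differed by 0.27 (SE 0.18). In Cy3 alone TXN rose by 0.49, with an unadjusted limma p of 0.000141 and an adjusted limma p of 0.0345. In Cy5, the common pool, TXN also differed by 0.28, with an unadjusted limma p of 0.0490. Its ratio was -0.76 under median centring and -0.22 in the deposited values. TIA1, a stress granule protein, differed by -0.27 (SE 0.12) and EIF4G1, a scaffold of translation initiation, by -0.13 (SE 0.23). Under median centring TIA1 was -1.06 and EIF4G1 -0.95, beside -0.43 for all genes, and in the deposited values they were -0.63 and -0.48.

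CIRBP released from cells is known to act on TLR4 with its co-receptor MD-2, encoded by LY96, and on TREM1, all of them receptors of myeloid cells. The 3 genes were all measured and all higher (median 0.47), and LY96 was the gene called. LY96 ran from 0.12 to 0.54 in controls (median 0.28) and was 0.94, 0.61, 1.52 and 0.85 in cold 1 to 4. The groups did not overlap, as for 5.22% of all genes, and cold 3 stood highest. LY96 rose by 0.66 (SE 0.16) with an unadjusted limma p of 0.00143 and an adjusted limma p of 0.0736, and was called without each array in turn. It was not called with the processed signals (0.69, unadjusted limma p of 0.0125), under median centring (0.48, unadjusted limma p of 0.0402) or in the deposited values (0.73, unadjusted limma p of 0.0107). Of its 4 probes 2 passed the filter, and without the filter LY96 was 0.36 higher. TLR4 differed by 0.47 (SE 0.15), with an unadjusted limma p of 0.0110 and an adjusted limma p of 0.119. It passed 0.01 in 6 of 23 alternatives, Cy3 alone (0.53) among them, and was 0.06 under median centring. TREM1 differed by 0.30 (SE 0.15), by 0.08 in Cy3 alone and by 0.15 without cold 3. Its sign turned, to -0.68 under median centring (all genes -0.43) and to -0.21 in the deposited table. The monocyte and neutrophil lists moved in the same samples, as given above, and their part was not tested.

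Of 12 partners and kinases of YBX1, 4 were measured, 1 lower and 3 higher (median 0.03). The others matched no target sequence by name, among them SYNCRIP, which the study reports as lower in cold. IGF2BP3, which binds and stabilises mRNAs, ran from 0.12 to 0.54 in controls (median 0.27) and was 0.63, 0.41, 0.74 and 0.78 in cold 1 to 4. Cold 2 lay within the range of the controls. IGF2BP3 rose by 0.34 (SE 0.11) with an unadjusted limma p of 0.00813 and an adjusted limma p of 0.109. It was no longer called in 14 of 22 alternatives, among them the processed signals (0.16) and Cy3 alone (0.22), and was called in 3 of 10 fits without an array. Under median centring IGF2BP3 was -0.13, or 0.29 above the all-gene median of -0.43. DHX9, an RNA helicase, differed by -0.20 (SE 0.09), by -0.34 with the processed signals, -0.55 in the deposited values, -0.97 under median centring (all genes -0.43) and -0.13 without cold 4. RPS6KA1, a kinase, differed by 0.04 (SE 0.08) and IGF2BP2 by 0.01 (SE 0.20). In Cy3 alone IGF2BP2 was 0.49 higher, with an unadjusted limma p of 0.00905 and an adjusted limma p of 0.0976.

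**Figure D5:**
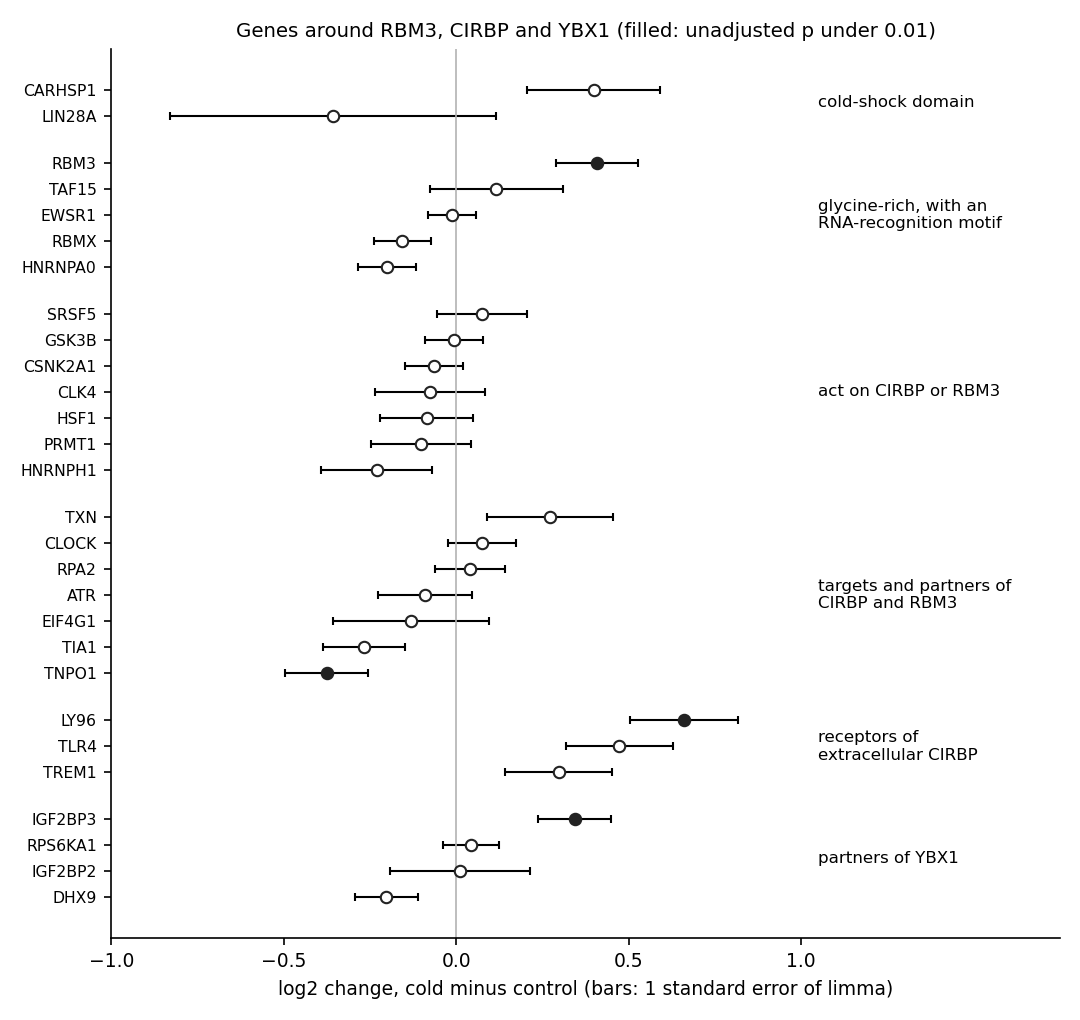
Log2 change, cold minus control, of 28 measured genes of 6 lists, with bars of 1 standard error of limma. Filled points have an unadjusted limma p under 0.01 (TNPO1, RBM3, LY96, IGF2BP3). The 3 receptors of extracellular CIRBP lie above 0, and the genes that act on CIRBP or RBM3 lie between -0.23 and 0.07 in this loess-normalized ratio.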

How the data were processed

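The authors deposited, for each array, Agilent Feature Extraction intensities (median spot and local background, not normalized, and processed signals) with spot flags, and a log2 value for each target sequence and array. Comparison with the scanner output showed that these deposited values are log2 Cy3 less log2 Cy5 plus array and sequence constants, and their column medians run from 7.87 to 8.78. Scale and direction were found in this way, and the origin of the constants was not. The mean spot signal was planned as input, and the median was used.

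Background was corrected by normexp (offset 50) and ratios by loess (span 0.3, 4 iterations) in limma 3.58.1 under R 4.3.3. Control and outlier spots were left out, spots averaged per probe and probes per gene. Probes entered the fit if, on 4 arrays or more, Cy3 was flagged well above background for a share of 0.5 or more of their spots (111051 of 181312 probes). Of 45328 target sequences, 21104 were named through RefSeq assembly ASM1176430v1.1, as 12918 symbols, and 2 genes with a missing value were left out. Groups were compared with lmFit and eBayes over all 10 arrays, and single values also by exact permutation. All 10 arrays lay on separate slides, scanned on 1 day. The arrays are of different ferrets, and their number limits the precision. Between 50.4 and 63.5% of spots passed that flag in Cy3, and between 27.0 and 64.0% in Cy5.

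The members and lists were chosen with earlier results of these data known. Named were every list gene at an unadjusted p under 0.01, up to 4 per list with the largest absolute change, and the 5 genes most like RBM3. Of the list genes, 2 are counted in the totals and not reported here. No promoter or protein sequence was searched. Alternatives were the processed signals, no background subtraction, median centring, Cy3 alone, the deposited table, other filters and summaries, the methods' t-test, array weights, blocks and left-out arrays. The fit was tested on simulated data with a much larger log2 change than that of RBM3, so that test does not bear on changes of this size.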

Additional observations from a re-analysis of the deposited data

Results flagged for a closer look

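Of 70 groups of 4 or 6 values examined for a sample far from the others, 3 held such a sample, where chance marks about 1 in 20 groups. The median Cy3 intensity of RBM3 before normalization was 11.59 on the log2 scale in cold 4, the lowest of the cold arrays, with the next at 12.38. The mean of the T cell marker list was -0.66 in cold 3, the lowest of its group, with the next at -0.02. DHX9 was 0.25 in control 1, the highest of the controls, with the next at 0.06. Their causes were not tested.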

How the results depend on the processing

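RBM3 kept its direction and its call in 17 of 31 alternatives tested with limma or the t-test, lost the call in 13 (the change within 1.5 times in 12) and reversed in 1, and the unnormalized Cy3 intensity gave 0.76. It was 0.33 with processed signals, 0.0504 in the deposited values, 0.41 in the methods' t-test, 0.35 without probe 1, 0.40, 0.36 and 0.28 for probes 2, 3 and 4 alone, and -0.39 under median centring, where the median of all genes was -0.43. Without the filter, with the filter on all arrays and with target sequences as features, RBM3 stayed at 0.41. Its size could not move there, since its probes passed on every array and share 1 target sequence. The t-test uses the same difference of means. The settings by probe, the unnormalized intensity and the left-out arrays for Cy5 were chosen after seeing the data. With the replicate block (replicates 1 to 4) RBM3 was 0.40, with an unadjusted limma p of 0.0129, and 2 list genes were called. Same-numbered samples deviated together with r of -0.30, 0.54, 0.10 and -0.19, and differently numbered ones with r from -0.37 to 0.56. With so few samples these values cannot decide whether the numbers pair the samples. Leaving out each array gave 0.31 to 0.50 for RBM3, 0.08 to 0.16 for its Cy5 level, 1275 to 3386 genes called and 1 to 5 list genes called. Against 2272 genes called, processed signals gave 1505, median centring 1163 and the deposited values gave 1093. Against 4 list genes called, processed signals gave 0, no background subtraction 2, median centring 1, the t-test 1 and the deposited values gave 0. Genes at an adjusted p under 0.05 numbered 0 except for Cy3 alone (741), the filter on all arrays (115), the slide position as a block (5) and without cold 2 (1272), control 5 (633) or cold 1 (12). Of the genes called, 39.7% were lower, against 57.5% with processed signals, 81.5% under median centring and 53.8% in the deposited table. Under median centring, which moved all genes to a median of -0.43, values below 0 for genes otherwise above it were CARHSP1 -0.36, TXN -0.76, TREM1 -0.68, IGF2BP3 -0.13, IGF2BP2 -0.18 and RPS6KA1 -1.02, of which CARHSP1, IGF2BP3 and IGF2BP2 lay above that median; signs turned in the deposited table LIN28A 0.35, TXN -0.22, TREM1 -0.21 and RPS6KA1 -0.48; RPS6KA1 -0.0575 with processed signals; HSF1 0.00815 in Cy3 alone and 0.00113 with array weights; IGF2BP2 -0.0721 with array weights, -0.00262 with the slide position and -0.00114 with the replicate block; LIN28A 0.0400 with the filter on all arrays; and CLK4 0.0158 with the replicate block. Over the left-out arrays LIN28A ran from -0.65 to 0.30, PRMT1 from -0.23 to 0.00833, CLK4 from -0.17 to 0.0222, EIF4G1 from -0.29 to 0.16 and IGF2BP2 from -0.0897 to 0.21. The causes were not tested. No values were obtained for CIRBP, YBX1 and YBX3, which matched no gene.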
